A study of Mus musculus with 2 samples.

Results

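Kcnq1, Kcne1, Slc12a2 and Bsnd are 4 genes of the potassium pathway of the marginal cell, the epithelial cell of the stria vascularis that borders the endolymph of the cochlear duct. They were taken by gene symbol from the 48816 features of each count matrix, and all 4 were found. Their levels were read in 6 classes of nuclei (marginal, intermediate, basal, root, spindle and Reissner's membrane). The marginal class was defined by the 5 markers Esrrb, Lmx1a, Abcg1, Heyl and Stac. None of the 4 genes was used in the clustering or was a naming marker.

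The nuclei came from the stria vascularis of CBA/J mice at postnatal day 30 (P30), with no treatment, transgene or other genotype named in the labels. In the MethFix dataset nuclei were fixed in methanol after isolation, and in the RNAlater dataset the tissue was kept in RNAlater, a salt solution that preserves RNA, before nuclei were isolated. Each dataset is 1 library from pooled mice. The methods give 5 mice for MethFix and 6 for RNAlater, while the labels give between 5 and 6 for MethFix and 10 for RNAlater.

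Marginal cells take up potassium from the space within the stria and release it into the endolymph. The cotransporter NKCC1, the product of Slc12a2, carries sodium, potassium and chloride into the cell across its basolateral membrane, where the sodium pump also works. Chloride leaves again through basolateral channels, whose accessory subunit barttin is made from Bsnd. Potassium leaves at the apical membrane through the channel formed by the pore subunit from Kcnq1 and the regulatory subunit from Kcne1. Loss of these genes is known to cause deafness in mice.

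Kcnq1 lies on chromosome 7 at 143106362 to 143427042 on the plus strand (GRCm38, GENCODE M21), a gene of 320681 bases with 4093 bases of exon. Of the 12 annotated genes that overlap it, the antisense transcript Kcnq1ot1 occupies 143203458 to 143296549 on the minus strand. Kcne1 covers 13487 bases of chromosome 16, from 92345982 to 92359468 on the minus strand, with 3214 bases of exon. Slc12a2 covers 68144 bases of chromosome 18, from 57878678 to 57946821 on the plus strand, with 10920 bases of exon. Bsnd is the shortest of the 4, with 8828 bases of chromosome 4 from 106483456 to 106492283 on the minus strand and 2756 bases of exon. Apart from Kcnq1, none of the 4 overlaps another annotated gene.

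The MethFix matrix held 4748 barcodes with 21027671 unique molecular identifiers (UMIs, each standing for 1 captured RNA molecule) and the RNAlater matrix 3868 barcodes with 17681824. After limits on genes, UMIs and mitochondrial UMIs and removal of doublets, 3372 and 2311 nuclei remained. The matrices shared 3323 barcodes, 70.0% of MethFix and 85.9% of RNAlater, and of 2064 nuclei placed in 1 of the 6 classes in both, 2063 had the same class. In the 671 marginal nuclei found in both, the smaller of the 2 counts of each barcode was summed and divided by the MethFix UMIs. This overlap of counts was 98.8% for Kcnq1, 93.1% for Kcne1, 99.8% for Slc12a2 and 78.5% for Bsnd. It compares the size of counts, not single UMIs, and can rise where RNAlater is deeper. With most barcodes and their classes shared, the libraries are not taken as separate samples. For this reason p-values are not given, and a value seen in both is not a replicate. Intervals are exact 95% intervals for counting error only. Of the naming markers, 4 of 5 on the marginal list, 5 of 6 on the intermediate list, all 6 on the basal and root lists, 4 of 6 on the spindle list and 3 of 5 on the Reissner list were highest in their own class in both libraries. The exceptions were Lmx1a (highest in Reissner nuclei), Pmel, Dkk2 and Slc26a4 of the spindle list (highest in Reissner and root nuclei), Otx1 and Oc90, and Oc90 had no UMI in Reissner nuclei. Tyrp1, on the intermediate list, had 1 UMI there in each library.

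The marginal class held 1083 nuclei in MethFix (median 4566 UMIs) and 675 in RNAlater (median 6084). The other classes were intermediate (853 and 522 nuclei), basal (750 and 604), root (86 and 82), spindle (97 and 57) and Reissner (155 and 154). Levels are given as CPM, the UMIs of a gene in a class divided by all UMIs of that class and multiplied by 1000000.

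Kcnq1 was highest in marginal nuclei and next highest in spindle nuclei. In MethFix its level was 3113 CPM (3062 to 3164) in marginal nuclei and 553 (467 to 651) in spindle nuclei. Reissner, root and basal nuclei followed at 235, 211 and 169, and intermediate nuclei were lowest at 55.9 (48.2 to 64.4). The RNAlater levels kept this order, with 3200 in marginal, 532 in spindle, 258 in Reissner, 224 in root, 162 in basal and 46.7 in intermediate nuclei. The intervals of marginal nuclei overlapped those of no other class in either library. Between Reissner and root nuclei the interval of the log2 ratio included 0 in both libraries, and between root and basal nuclei it did so in MethFix alone.

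Against the other 5 classes summed, Kcnq1 was 23.8-fold higher in marginal nuclei in MethFix (22.2 to 25.5) and 24.5-fold in RNAlater (22.8 to 26.4). Of 11088 genes with at least 50 UMIs over the marginal and other nuclei in each library, 1156 (10.4%) were at least 2-fold higher in marginal nuclei in both. All 4 members were among them, at rank 49 for Bsnd, 91 for Kcnq1, 231 for Kcne1 and 364 for Slc12a2 when genes were ordered by the lower of the 2 log2 ratios. With each of the 5 classes weighted alike, so that the spindle level counted as much as the intermediate level, the log2 ratio of Kcnq1 was 3.67 in MethFix and 3.71 in RNAlater, against 4.57 and 4.61 for the classes summed.

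Kcne1 was likewise highest in marginal nuclei, where MethFix gave 691 CPM (667 to 715) and RNAlater gave 648 (624 to 674). Its level was 108 in basal, 80.8 in Reissner, 72.5 in spindle, 52.9 in intermediate and 18.2 in root nuclei of MethFix, and 98.4, 100.3, 71.7, 47.1 and 45.4 in the same classes of RNAlater. The order among these 5 was resolved in part. The interval of basal nuclei lay above that of intermediate nuclei in both libraries (94.0 to 122 against 45.4 to 61.3, and 85.8 to 112 against 39.4 to 55.7). Between neighbours in the order, the interval of the log2 ratio lay above 0 for intermediate over root nuclei in MethFix, where root nuclei gave 5 UMIs, and included 0 for the others. Kcne1 was 9.62-fold higher in marginal nuclei than in the others summed in MethFix (8.72 to 10.6) and 9.15-fold in RNAlater (8.26 to 10.2). Without the limit of 10% mitochondrial UMIs, the RNAlater log2 ratio of Kcne1 was 1.82 in place of 3.19, and that of MethFix 3.22 in place of 3.27.

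Slc12a2 was present in every class, and its second highest level was in intermediate nuclei, the melanocytes of the stria. Marginal nuclei of MethFix had 8985 CPM (8899 to 9071) and those of RNAlater 9394 (9299 to 9490). The intermediate level was 2164 (2114 to 2214) and 2305 (2249 to 2361), 24.1% and 24.5% of the marginal level. Basal nuclei had 1187 and 1224, Reissner nuclei 583 and 538, root nuclei 430 and 461, and spindle nuclei 412 and 343. Marginal, intermediate, basal and Reissner nuclei were separated from their neighbours in this order in both libraries, except Reissner from root in RNAlater, and root was not separated from spindle in either.

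The marginal level of Slc12a2 was 5.61-fold that of the other classes summed in MethFix (5.49 to 5.74) and 5.84-fold in RNAlater (5.71 to 5.97). Intermediate nuclei were in turn 2.22-fold above basal, root, spindle and Reissner nuclei summed in MethFix (2.13 to 2.32) and 2.32-fold in RNAlater (2.23 to 2.42). In that comparison 908 of 9719 genes (9.34%) were at least 2-fold higher in intermediate nuclei in both libraries. With the classes weighted alike, the log2 ratio of marginal to other nuclei was 3.23 and 3.27, against 2.49 and 2.54 for the classes summed.

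Bsnd had few UMIs, and nearly all were in marginal nuclei. The marginal class held 226 UMIs in MethFix, or 48.6 CPM (42.4 to 55.3), and 211 in RNAlater, or 53.4 CPM (46.4 to 61.1). The other 5 classes together held 9 UMIs in each library, with no more than 4 in any class. Root nuclei had none in either library and spindle nuclei none in MethFix, where 3 UMIs would be 10.9 CPM in root and 11.4 CPM in spindle nuclei of MethFix and 9.74 CPM in root nuclei of RNAlater. The marginal level was 34.6-fold that of the other classes summed in MethFix (17.9 to 76.7) and 35.9-fold in RNAlater (18.6 to 79.6). The log2 ratio of 5.11 in MethFix was 4.13 with nuclei whose barcode was in 1 matrix, and that of 5.17 in RNAlater was 4.35 with nuclei named 1 by 1 from their own marker UMIs, 4.37 without the mitochondrial limit and 4.53 with the classes weighted alike.

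**Figure D1:**
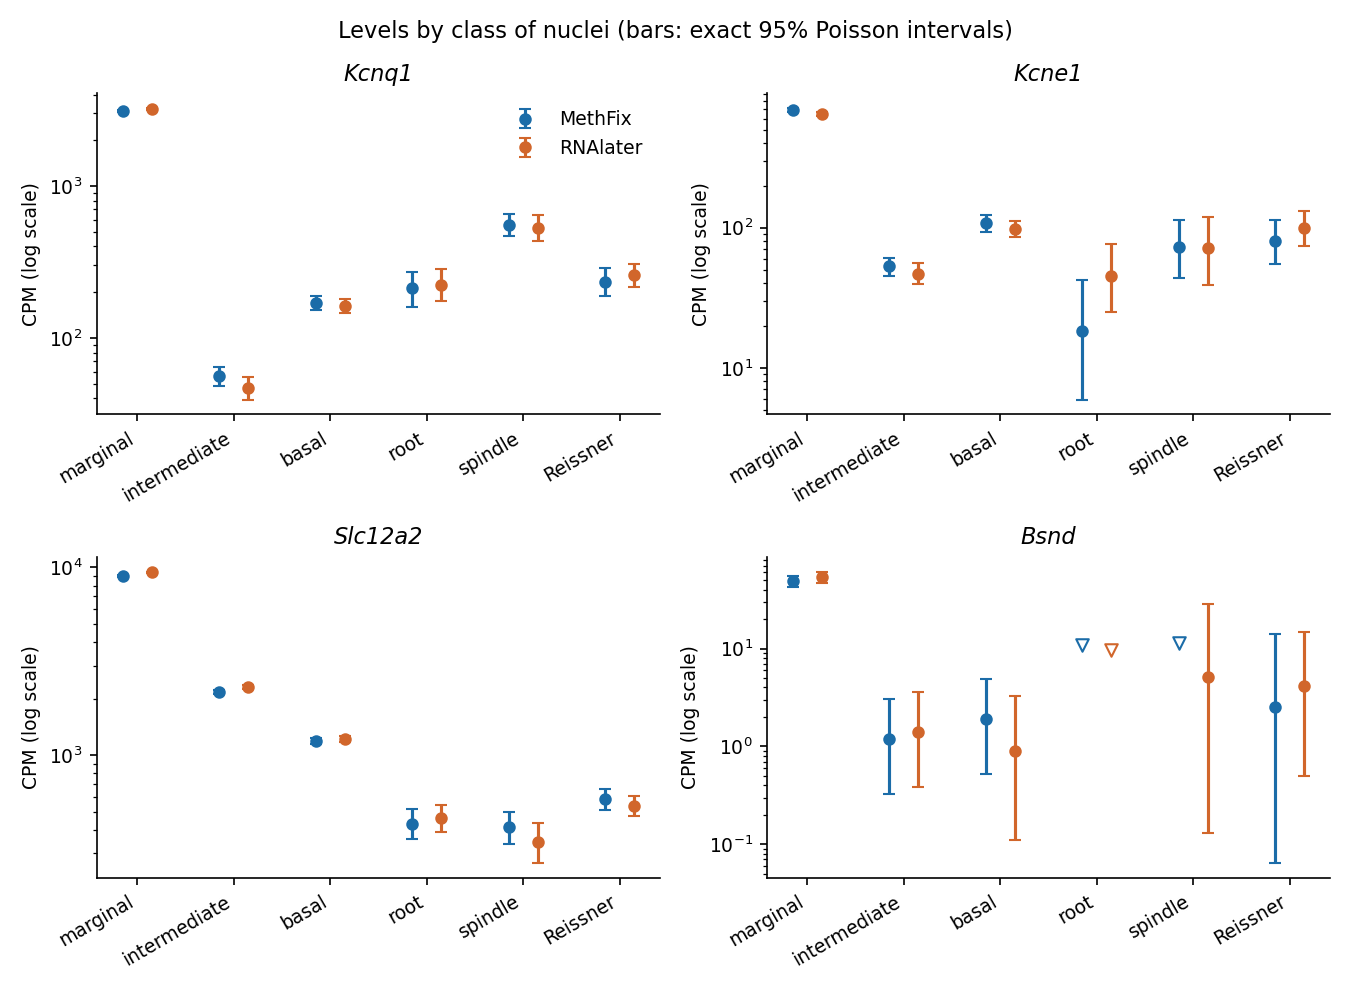
Levels of the 4 genes in 6 classes of nuclei, in CPM on a log axis that differs between panels, with points for each library, bars for exact 95% Poisson intervals, and open triangles at the level of 3 UMIs where a class had none. Marginal nuclei are highest in every panel, spindle nuclei come next for Kcnq1 (553 and 532) and intermediate nuclei for Slc12a2 (2164 and 2305).

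Single nuclei also had the most UMIs of the members in the marginal class. In marginal nuclei the median was 13 UMIs of Kcnq1 per nucleus in MethFix (range 0 to 50) and 18 in RNAlater (range 0 to 54). The median of Kcne1 was 2 and 3 UMIs, with highest values of 15 and 18, and that of Slc12a2 was 37 and 54, with highest values of 128 and 137. No marginal nucleus had more than 3 UMIs of Bsnd. In spindle nuclei the median of Kcnq1 was 1 UMI in both libraries, with highest values of 6 and 7.

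At full depth 97.9% of marginal nuclei had a Kcnq1 UMI in MethFix and 99.7% in RNAlater, against 19.0% and 22.2% of intermediate nuclei, whose median depth was 4030 and 5445.5 UMIs. For Kcne1 the shares were 85.0% and 93.6% of marginal against 17.0% and 22.4% of intermediate nuclei. A Slc12a2 UMI was found in 99.6% and 100% of marginal nuclei and in 95.9% and 99.8% of intermediate nuclei. A Bsnd UMI was found in 18.1% and 25.8% of marginal nuclei and in 0.469% and 0.766% of intermediate nuclei.

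Since depth differed between classes, each nucleus was also thinned to 1000 UMIs, which left out 50 marginal nuclei of MethFix and 4 of RNAlater. Kcnq1 was then found in 92.8% of marginal nuclei in MethFix (91.1 to 94.3) and 93.9% in RNAlater (91.8 to 95.6). Spindle nuclei had it in 39.6% (29.5 to 50.4) and 35.2% (22.7 to 49.4), and intermediate nuclei in 4.29% and 4.60%. Kcne1 was found in 47.8% and 45.0% of thinned marginal nuclei and in 1.27% to 11.8% of nuclei of the other classes. Slc12a2 was found in 99.4% and 99.9% of thinned marginal nuclei, in 83.0% and 85.6% of intermediate nuclei, in 66.4% and 67.5% of basal nuclei, and in 30.8% to 40.2% of root, spindle and Reissner nuclei. The share with Bsnd was 4.36% and 4.62% of thinned marginal nuclei. At this depth 2 of 660 basal nuclei of MethFix and 2 of 522 intermediate nuclei of RNAlater had a Bsnd UMI, and none did in the other classes of either library.

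**Figure D2:**
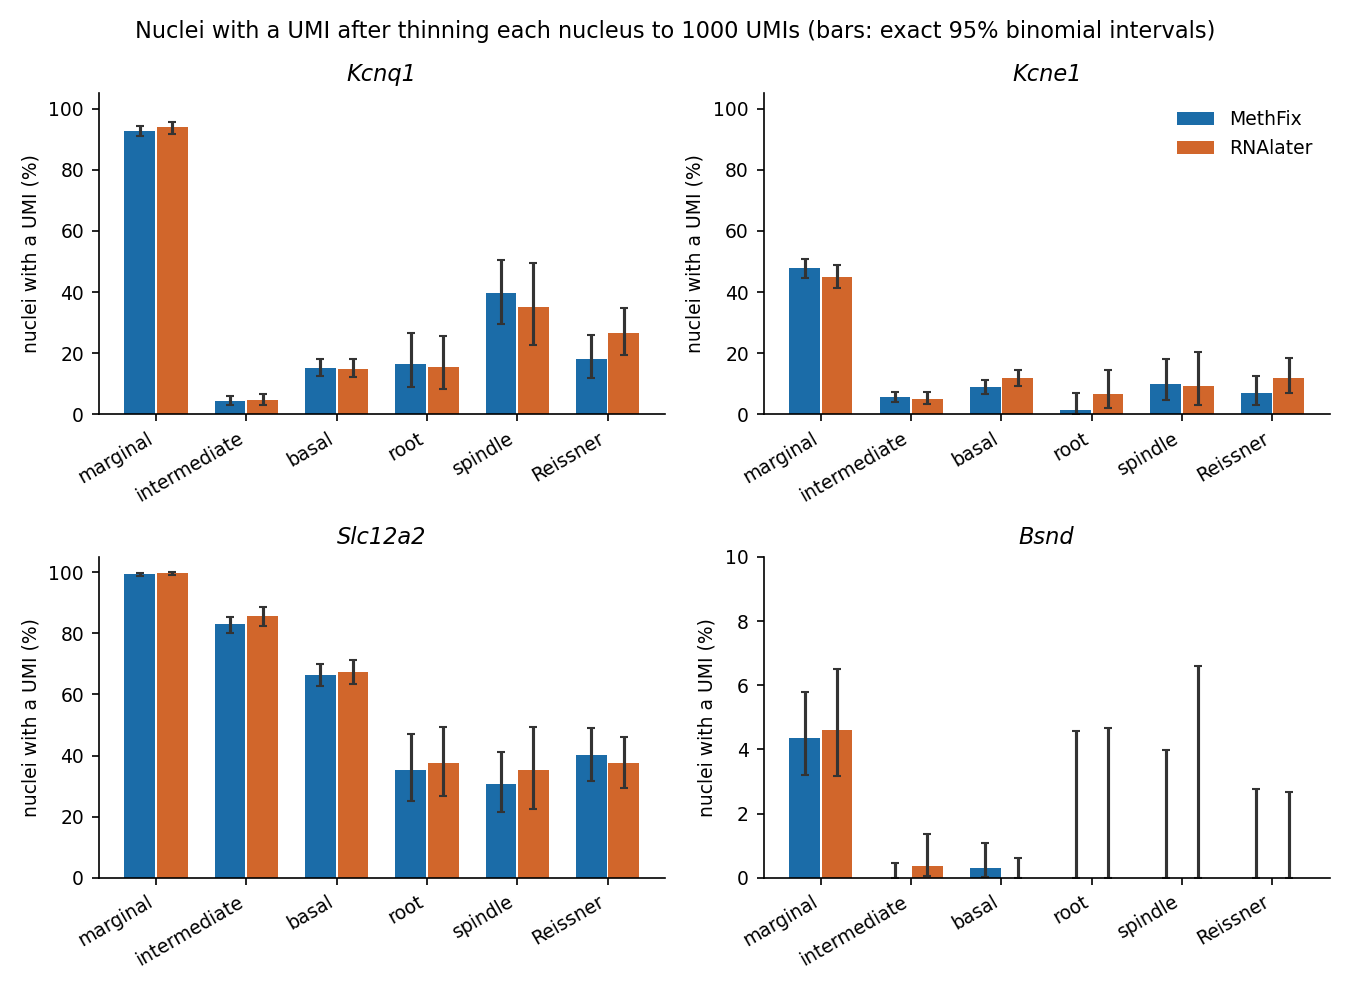
Percent of nuclei with at least 1 UMI after each nucleus was thinned to 1000 UMIs, by class and library, with exact 95% binomial intervals and a shorter axis for Bsnd. Kcnq1 is found in 92.8% and 93.9% of marginal nuclei and in 4.29% and 4.60% of intermediate nuclei, while Slc12a2 is found in 83.0% and 85.6% of intermediate nuclei.

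In thinned marginal nuclei the share with Kcne1 was much the same with and without a Kcnq1 UMI. It was found in 47.9% of the 959 MethFix nuclei with Kcnq1 and in 47.3% of the 74 without, and in RNAlater in 44.8% of 630 and 48.8% of 41. With a Bsnd UMI it was found in 17 of 45 and 8 of 31 nuclei, and without one in 477 of 988 and 294 of 640. At full depth Kcne1 was found in 89.8% and 93.7% of nuclei with a Bsnd UMI, and in 84.0% and 93.6% of those without. Kcnq1 and Slc12a2 were both present in 954 of 1033 thinned marginal nuclei of MethFix and 629 of 671 of RNAlater. All 4 genes were present in 15 (1.45%) and 8 (1.19%) of these nuclei. Most other nuclei had 2 of the genes (49.8% and 52.5%) or 3 (45.2% and 43.7%).

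Outside marginal nuclei, the members were set beside the naming markers by their percent of the marginal level. Kcnq1 stood at 17.8% and 16.6% in spindle nuclei, 5.07% to 8.06% in Reissner, root and basal nuclei, and 1.79% and 1.46% in intermediate nuclei. Kcne1 stood at 15.6% and 15.2% in basal, 11.7% and 15.5% in Reissner and 10.5% and 11.1% in spindle nuclei. In intermediate nuclei it was at 7.66% and 7.26%, and in root nuclei at 2.64% and 7.01%. Slc12a2 stood at 24.1% and 24.5% in intermediate, 13.2% and 13.0% in basal and 3.65% to 6.49% in root, spindle and Reissner nuclei. Bsnd had few UMIs there and is left out. The markers themselves differed widely. Esrrb was between 0.343% and 1.03% of its marginal level in the other classes and Stac between 0% and 0.886%, whereas Abcg1 was 22.6% and 23.4% in spindle and 19.5% and 16.9% in Reissner nuclei, and Heyl 31.8% in root nuclei of both libraries. Lmx1a was 46.3% and 52.6% in spindle and 81.8% and 83.7% in root nuclei, and in Reissner nuclei it was above its marginal level. The part of RNA from marginal cells in the members' levels elsewhere was not tested.

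The spindle level of Kcnq1 was 4.90-fold that of intermediate, basal, root and Reissner nuclei summed in MethFix (4.07 to 5.87) and 4.54-fold in RNAlater (3.66 to 5.59). In that comparison 803 of 9719 genes (8.26%) were at least 2-fold higher in spindle nuclei in both libraries. Over the next class, Reissner nuclei, the fold was 2.36 and 2.06. Spindle nuclei were also split by whether they held a UMI of the markers other than Lmx1a, of which all spindle nuclei together held 28 in MethFix and 13 in RNAlater. The 76 MethFix spindle nuclei with no UMI of Esrrb, Stac, Abcg1 or Heyl had 611 CPM of Kcnq1, and the 21 with such a UMI had 361. In RNAlater the 46 spindle nuclei without a marker UMI had 525, and the 11 with such a UMI had 556. Kcne1 in spindle nuclei without a marker UMI was 79.5 and 79.8. With so few marker UMIs, a nucleus without one may still hold RNA of marginal cells. Abcg1 was at 22.6% (12.0 to 38.6) and 23.4% (11.2 to 43.1) of its marginal level in spindle nuclei, and the source of the marker UMIs is not known. The split therefore does not measure the RNA of marginal cells in spindle nuclei, which was not tested.

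The clusters of the root class differed for Kcnq1 in RNAlater. Those of 34, 35 and 13 nuclei had 358 (267 to 471), 100.3 (50.1 to 180) and 125 CPM (50.1 to 257). They also differed in their leading genes, which were Lgr5, Rspo2 and Slc26a4, then Prss36, Srgap1 and Otogl, then RP23-416J8.1, Dgkb and Ceacam16. In MethFix the root clusters of 72 and 14 nuclei had 231 (172 to 304) and 130.2 (52.3 to 268), with overlapping intervals. Among basal nuclei the 3 MethFix clusters lay between 139.8 and 224.

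Kcnq1ot1, the antisense transcript that silences neighbouring imprinted genes in cis, did not follow Kcnq1. Its level was highest in basal nuclei, at 2112 CPM in MethFix and 1966 in RNAlater, and it was 347 and 344 in marginal, 339 and 309 in intermediate, 495 and 425 in root, 447 and 432 in Reissner, and 160.2 and 154 in spindle nuclei. Per UMI of Kcnq1 this was 0.112 and 0.108 UMIs of Kcnq1ot1 in marginal nuclei and 12.5 and 12.1 in basal nuclei. The ratio was 6.07 and 6.62 in intermediate, 2.34 and 1.90 in root, 1.90 and 1.67 in Reissner and 0.290 and 0.288 in spindle nuclei. The methods name Cell Ranger with default settings, and the sources used here state no strand setting for the counts. How reads from the shared interval were divided between the pair was not tested. The low Kcnq1 levels of intermediate, basal, root and Reissner nuclei are given with that limit.

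The number of Kcne1 UMIs per Kcnq1 UMI, which depends on the lengths and reads of both genes and was compared only between groups of nuclei, differed between classes. It was 0.222 in marginal nuclei of MethFix (0.214 to 0.231) and 0.203 in those of RNAlater (0.194 to 0.211). Spindle nuclei had 0.131 (0.0767 to 0.212) and 0.135 (0.0711 to 0.236), so that the MethFix interval lay below that of marginal nuclei and the RNAlater interval did not. The ratio was higher in basal nuclei, at 0.637 and 0.607, and in intermediate nuclei, at 0.947 (0.768 to 1.17) and 1.01 (0.787 to 1.29). Reissner nuclei had 0.344 and 0.389, and in root nuclei 5 and 14 Kcne1 UMIs gave 0.0862 and 0.203.

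Among the barcodes left out for more than 10% mitochondrial UMIs, 748 in MethFix and 1165 in RNAlater with median mitochondrial shares of 49.4% and 50.3%, this ratio was far higher. There were 3.65 Kcne1 UMIs per Kcnq1 UMI in MethFix (3.28 to 4.07) and 5.12 in RNAlater (4.62 to 5.68). As CPM of the non-mitochondrial UMIs these barcodes held 1354 and 1542 of Kcne1, 371 and 301 of Kcnq1, 5551 and 6377 of Slc12a2 and 332 and 342 of Esrrb. Barcodes over the limit of 8000 UMIs had a ratio of 0.314 and 0.319. Whether RNA from these mitochondria-rich barcodes contributed to the Kcne1 UMIs of the other classes was not tested.

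**Figure D3:**
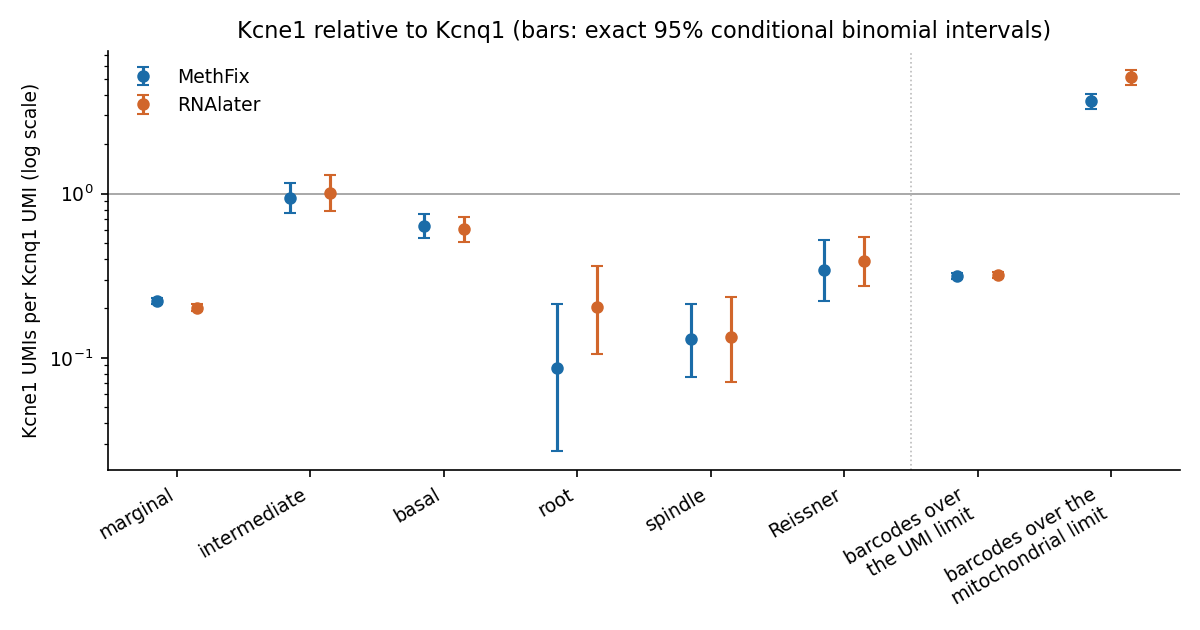
Kcne1 UMIs per Kcnq1 UMI on a log axis, for the 6 classes and, right of the dotted line, for barcodes left out for their UMI total or mitochondrial share, with exact 95% conditional binomial intervals and a line at equal numbers. The ratio is 0.222 and 0.203 in marginal nuclei and 3.65 and 5.12 in barcodes over the mitochondrial limit.

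The same direction was seen within marginal nuclei. These were split into quartiles of the mitochondrial share, whose medians ran from 0.180% to 2.66% in MethFix and from 0.138% to 1.21% in RNAlater, and levels were taken as CPM of the non-mitochondrial UMIs. Kcne1 was 567 in the first quartile, 611 and 757 in the middle quartiles and 915 in the last quartile of MethFix, and 523, 563, 665 and 858 in RNAlater. The last quartile was thus 1.62-fold above the first in MethFix (1.46 to 1.78) and 1.64-fold in RNAlater (1.47 to 1.84). Of 5900 genes with at least 50 UMIs over these quartiles in each library, 233 (3.95%) were at least 1.5-fold higher in the last quartile in both, Kcne1 among them.

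Kcnq1 and Slc12a2 did not pass this fold. Kcnq1 was 0.926-fold (0.883 to 0.970) in the last against the first quartile of MethFix and 0.970-fold (0.923 to 1.02) in RNAlater, and Slc12a2 was 0.984-fold (0.957 to 1.01) and 1.09-fold (1.06 to 1.13). For Bsnd, with 41 to 54 UMIs a quartile in the quartiles compared, the folds were 1.02 (0.660 to 1.56) and 1.14 (0.757 to 1.73), intervals that leave a change of 1.5-fold undecided. The last to first quartile folds of the 5 naming markers lay between 0.875 and 1.09, with 0.966 and 1.06 for Esrrb. The median depth was 4928 UMIs in the first and 3645 in the last quartile of MethFix, and 5800 and 6191 in those of RNAlater. The part of depth in the Kcne1 difference was not tested.

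**Figure D4:**
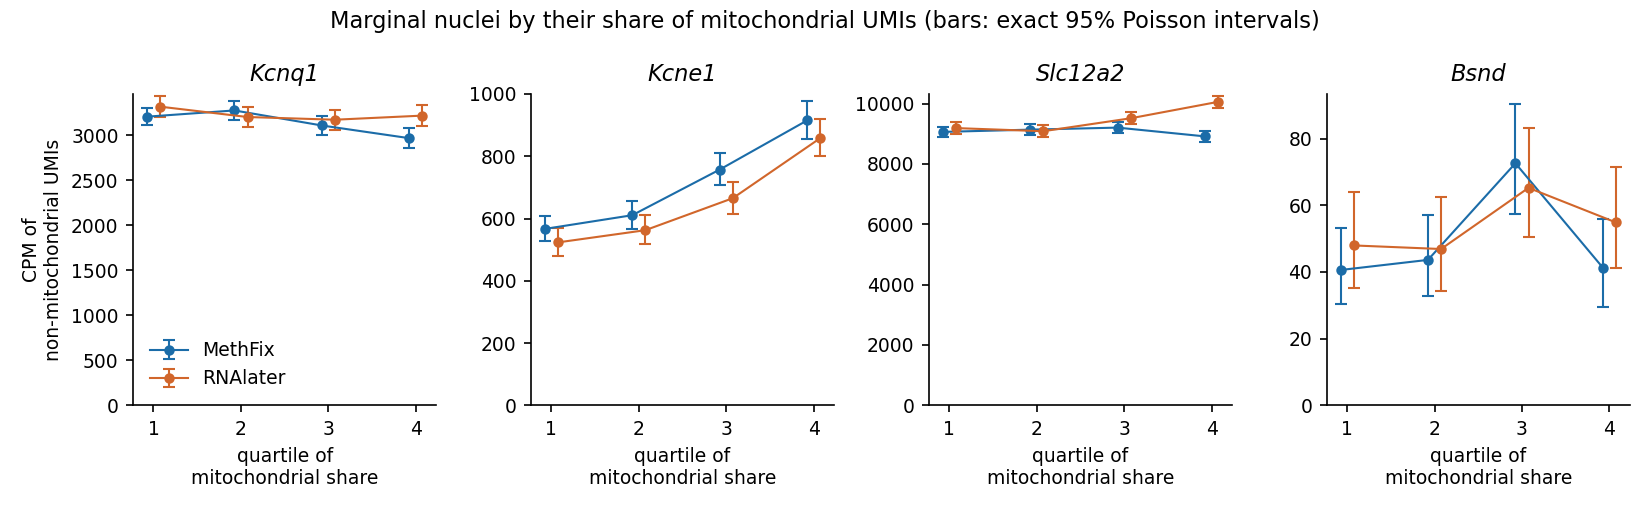
Levels of the 4 genes in marginal nuclei by quartile of the mitochondrial share, in CPM of the non-mitochondrial UMIs, with exact 95% Poisson intervals. Kcne1 goes from 567 to 915 in MethFix and from 523 to 858 in RNAlater, while Kcnq1 and Slc12a2 in the last quartile are 0.926-fold to 1.09-fold their first.

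Split by depth, marginal nuclei of MethFix differed for Slc12a2 and Kcnq1. The deepest quartile was 1.59-fold above the shallowest for Slc12a2 (1.52 to 1.65) and 1.28-fold for Kcnq1 (1.21 to 1.37), against 1.15-fold and 1.07-fold in RNAlater, and Kcne1 was 1.01-fold and 0.925-fold. The 3 marginal clusters of MethFix showed where the low values lay. A cluster of 149 nuclei with a median of 1394 UMIs had 1909 CPM of Kcnq1, 5100 of Slc12a2 and 1892 of Esrrb, whereas the clusters of 697 and 237 nuclei had 3230 and 3037 of Kcnq1, 9071 and 9535 of Slc12a2 and 3086 and 2787 of Esrrb. Kcne1 was 652 in that cluster, 606 in the cluster of 697 nuclei and 932 in the cluster of 237, whose median mitochondrial share of 2.14% was the highest of the 3. The 4 RNAlater clusters lay between 2996 and 3286 for Kcnq1 and between 9010 and 9834 for Slc12a2, and Kcne1 ran from 527 in the cluster with the lowest mitochondrial share to 894 in that with the highest.

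The other genes of potassium uptake and secretion were taken as a list of 34 with the members included, of which 22 had at least 50 UMIs over the groups compared in each library. Of these 22, 11 were at least 2-fold higher in marginal nuclei in both libraries, 7 were at least 2-fold lower and 4 were neither. Over all 11088 genes 10.4% were higher and 16.3% were lower. Without the 4 members, 7 of 18 were higher and 7 lower, and the median log2 ratio of the 18 was 0.15 in MethFix and 0.20 in RNAlater, against 0.02 and 0.01 over all genes. With a minimum of 10 UMIs in place of 50, when 22 of these genes were compared, the median was below 0, at −0.11 and −0.32. The list was chosen with earlier results of these data known, so its count is a description.

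The beta subunits of the sodium pump differed in direction. Atp1b2 was higher in marginal nuclei by 3.31 and 3.32 on the log2 scale, and Atp1b1 was lower, with log2 ratios of −3.99 and −4.15. Intermediate nuclei had 2697 and 2851 CPM of Atp1b1, marginal nuclei 98.0 and 84.0. Atp1b2 also moved with the mitochondrial share within marginal nuclei, with a last to first quartile fold of 1.64 and 1.60. Of the 18 listed genes with enough UMIs in that comparison, Kcne1 and Atp1b2 were the 2 past 1.5-fold in both libraries, beside 3.95% of all genes compared.

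Clcn2, which forms a chloride channel, was lower in marginal nuclei, with log2 ratios of −2.09 and −1.82.

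Slc12a7, a potassium and chloride cotransporter, was 9.68-fold and 9.52-fold higher in marginal nuclei than in the others summed, at 361 and 388 CPM, and root nuclei had 266 and 253. Slc12a4 was not separated from 0, with log2 ratios of −0.15 (−0.50 to 0.20) and −0.07 (−0.44 to 0.30). Slc12a1 and Slc12a3, the cotransporters of the kidney tubule, had no more than 2 UMIs in either group compared.

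The genes related to Kcne1 and Kcnq1 that are given here had few UMIs in marginal nuclei. Kcne2, Kcne3 and Kcne4 are listed at 0 in every class, where 3 UMIs in marginal nuclei would be 0.645 and 0.759 CPM, and Kcne5, named Kcne1l in the files, had 1 UMI in each library. Whether reads of Kcne2, Kcne3 and Kcne4 were lost in counting was not tested. Kcnq3 and Kcnq5, pore subunits of the same family as Kcnq1, were lower in marginal nuclei. Kcnq5 was concentrated in spindle nuclei, at 2570 and 2298 CPM against 2.4 and 2.5 in marginal nuclei. Kcnq3 was highest in root nuclei, at 291 and 331 against 5.37 and 5.57 in marginal nuclei.

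Of the 9 kinases and regulators listed, 7 had at least 50 UMIs in each library. Of these 7, 3 were at least 2-fold higher in marginal nuclei than in the other 5 classes summed in both libraries. The share over all genes compared was 10.4%. The 3 genes were Stk39 (SPAK), which phosphorylates NKCC1, Wnk2, a kinase of the family that acts on SPAK, and Sgk1, a kinase of ion transport. Their folds were 4.97 and 4.73 for Stk39, 5.58 and 5.19 for Wnk2, and 6.22 and 5.28 for Sgk1. Root nuclei also had high levels of Stk39 (1916 and 2025 CPM, against 2609 and 2690 in marginal nuclei). Sgk1 was 259 and 282 in root nuclei against 255 and 247 in marginal nuclei, so its marginal value was not the highest. Wnk4 was lower in marginal nuclei, with log2 ratios of −1.39 and −1.62, and was highest in basal nuclei. Wnk1, Nedd4l, a ubiquitin ligase, and Akap9, an anchoring protein that binds the Kcnq1 product, lay within 2-fold. Oxsr1, the kinase closest to SPAK, is listed at 0 in all classes. The gene overlaps Slc22a14, annotated on the same strand, and whether its reads were lost in counting was not tested.

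**Figure D5:**
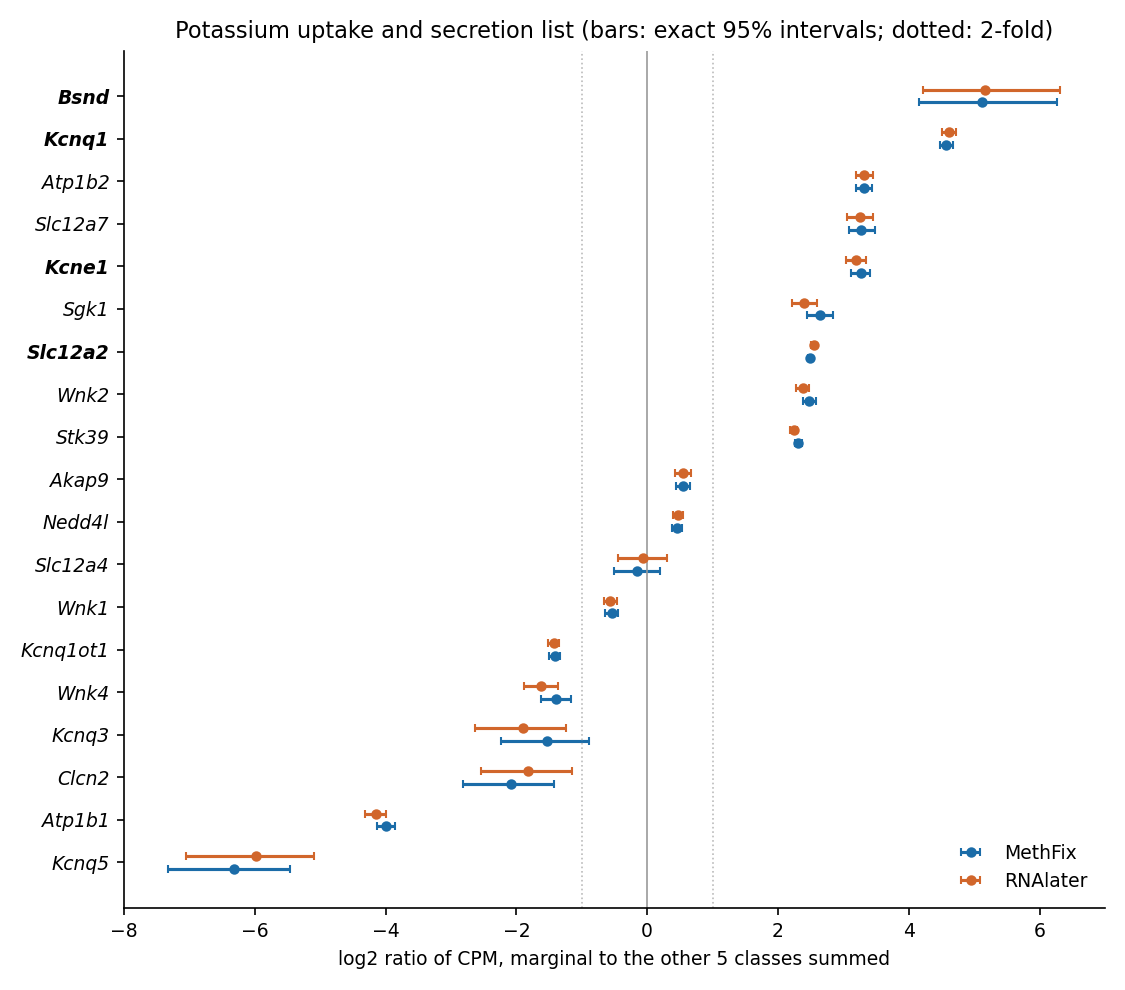
Log2 ratio of CPM in marginal nuclei to the other 5 classes summed, for 19 genes of the potassium list with at least 50 UMIs in each library, with exact 95% intervals and dotted lines at 2-fold. The 4 members, in bold, lie between 2.49 and 5.17, and Kcnq5 is lowest at −6.31 and −5.98.

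The genes whose levels over clusters were most like each member's were ranked by the lower of the 2 Pearson correlations of log2 (CPM + 10), over 18 clusters in MethFix and 20 in RNAlater, among 9600 genes. The clusters of a library share its depth and its mitochondria-rich nuclei, the libraries share barcodes, and the correlations are a description. For Kcnq1 these were Gm37795, Atp2c2, Myo3b, Gyltl1b and Gramd2, with a lower r of 0.913 to 0.926. Gramd2, like Kcnq1, had its second level in spindle nuclei, at 99.2 and 107 CPM after 216 and 225 in marginal nuclei. Gm37795 was also second in spindle nuclei, whereas Atp2c2, Myo3b and Gyltl1b were second in Reissner nuclei in both libraries. These orders rest on few UMIs, 17 to 64 a gene in the other 5 classes together, and no intervals were taken for them. In MethFix Gyltl1b was at 27.8 CPM in Reissner and 26.7 in spindle nuclei. For Kcne1 they were Ptger3, Rgs4, Spp1, Rufy4 and Dnase1, with r of 0.910 to 0.944. Spp1, the gene of osteopontin, and Dnase1 shared with Kcne1 a difference by mitochondrial share of at least 1.5-fold, with folds of 1.82 and 2.08 for Spp1 and 1.66 and 1.61 for Dnase1, whereas Ptger3 had 0.850 and 0.911.

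For Slc12a2 the genes given here are Zfp979, Gm10044, Med27 and Acacb, with r of 0.872 to 0.909. Acacb, like Slc12a2, had its second level in intermediate nuclei, at 124 and 132 CPM after 299 and 306 in marginal nuclei. Med27 was also second there, whereas Gm10044 was second in basal nuclei. Zfp979 was second in intermediate nuclei of MethFix and in basal nuclei of RNAlater. For Bsnd it was Nwd2, Zfp600, Tmem45b, Gm44127 and Gm29012, with r of 0.949 to 0.962. Gm29012 had 244 and 237 UMIs in marginal nuclei and 0 and 1 in the other classes. Among the members themselves, the lower r was 0.768 for Kcnq1 and Kcne1, 0.586 for Kcnq1 and Slc12a2, 0.768 for Kcne1 and Slc12a2, and between 0.824 and 0.883 for Bsnd with the other three. None of the 20 genes was a naming marker.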

How the data were processed

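Per the file headers, the deposited counts are whole UMIs for every gene and barcode, written by Cell Ranger 3.0.1, and the authors applied no normalization to them. The submitters' processing notes name the build GRCm38. Kept nuclei had 200 or more genes, 8000 or fewer UMIs and 10% or less mitochondrial UMIs. Scrublet in scanpy 1.11.5 (expected rate 0.1) removed 224 doublets from MethFix and 18 from RNAlater. Clustering used 4000 variable genes, among them none of the 34 genes of the potassium list, with 30 principal components, 10 neighbours and leidenalg 0.10.2 at a resolution of 1 (MethFix) or 1.5 (RNAlater).

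Each cluster was scored on 15 marker lists as the mean log2 excess of marker levels over their lower quartile among clusters (pseudocount 10). Naming required a minimum score of 1, 3 detected markers, 0.7 of the top score for that name and a lead of 1 over any rival, and failed where another class had more markers among the 10 genes with the largest fold. Those 10 genes were taken from all genes and included Kcne1 in the marginal clusters of 237 nuclei (MethFix) and 80 nuclei (RNAlater). The naming thresholds were set after clusters had been seen, and the members and lists were chosen with earlier results of these data known.

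UMIs were summed per class and divided by the class total, and no test was run. Intervals are exact at 95% (Poisson for sums, Clopper-Pearson for shares, conditional binomial for ratios) and cover counting error only. Where 1 group had 0 UMIs, 3 were used as its floor, and no ratio was formed where both groups were at or under the floor. Thinning drew 1000 UMIs per nucleus without replacement. A gene was counted as higher or lower at 2-fold in both libraries. The genes named are the members, the potassium list and, for each member, the 5 genes most like it with at least 100 UMIs in each library. Some genes of the list are counted but not reported here by name, and 1 of the genes most like Slc12a2 is not reported here. The fold calls were run on simulated Poisson counts, with changes larger than 2-fold put into genes with many UMIs. Calls near the limits of 2-fold and 1.5-fold were not covered by this. TMM factors, an alternative scaling, came from edgeR 4.0.16. Identifier versions of Kcne1, Slc12a2 and Kcnq1ot1 differ from GENCODE M21, which gave the coordinates. Python 3.11.15, numpy 2.4.6, scipy 1.17.1 and R 4.3.3 were used.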

Additional observations from a re-analysis of the deposited data

Results flagged for a closer look

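The barcodes placed in none of the 6 classes, 1724 in MethFix and 1774 in RNAlater, also carried the 4 genes. Their values were singled out because they lie outside the comparisons between classes and rest on more than 3 UMIs each. Each value was also above the level of the non-marginal classes summed. In MethFix these barcodes held 1158 CPM of Kcnq1, 502 of Kcne1, 4242 of Slc12a2 and 22.5 of Bsnd. In RNAlater they held 1113 of Kcnq1, 643 of Kcne1, 5171 of Slc12a2 and 28.5 of Bsnd. The marginal marker Esrrb was present in them too, at 1070 CPM in MethFix. They are a mixture of barcodes over the UMI limit (401 and 373), over the mitochondrial limit (748 and 1165), called doublets, and nuclei left without one of the 6 names. No group had the 4 or more samples that a search for samples far from the others needs.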

How the results depend on the processing

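None of the alternatives run for the 4 genes turned a log2 ratio from above 0 to below, but a minimum of 10 UMIs turned the median of the potassium list without them from 0.15 and 0.20 to −0.11 and −0.32. Those outside the counting interval of the reported value are given here, for MethFix then RNAlater unless 1 library is named, and the cause was not tested. With the other classes weighted alike, the log2 ratio was 3.67 and 3.71 for Kcnq1 and 3.23 and 3.27 for Slc12a2. With nuclei named 1 by 1 (473 and 268 marginal nuclei), the log2 ratio was 4.22 and 4.38 for Kcnq1 and 2.46 and 2.47 for Slc12a2, the Kcnq1 level was 3168 and 3279 CPM, and its RNAlater share was 98.9%. With TMM scaling the levels were 3315 and 3415 for Kcnq1, 736 and 692 for Kcne1 and 9568 and 10023 for Slc12a2, whose RNAlater log2 ratio was 2.58. Without the upper UMI limit the levels were 3061 for Kcnq1 in MethFix, 778 and 759 for Kcne1 and 9274 and 9830 for Slc12a2, the log2 ratio was 2.53 and 2.59 for Slc12a2 and 3.36 for Kcne1 in RNAlater, and the share with Bsnd was 21.0% and 30.1%. Without the mitochondrial limit the RNAlater levels were 3129 for Kcnq1, 723 for Kcne1 and 9747 for Slc12a2, the Kcnq1 share was 97.4%, and the log2 ratios were 1.82 for Kcne1 and 2.43 for Slc12a2. With at most 5% mitochondrial UMIs the MethFix log2 ratio of Kcne1 was 3.42.

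With MethFix barcodes found in both matrices, the levels were 3176 for Kcnq1 and 9580.4 for Slc12a2, the shares were 99.1% for Kcnq1, 91.7% for Kcne1, 100% for Slc12a2 and 22.4% for Bsnd, and the log2 ratio of Slc12a2 was 2.54. With the 315 marginal nuclei whose barcode was in MethFix alone, the levels were 2805 for Kcnq1, 629.9 for Kcne1, 6059 for Slc12a2 and 33.0 for Bsnd, the shares were 94.9%, 68.9%, 98.7% and 7.62%, and the log2 ratios were 3.43 for Kcne1, 2.18 for Slc12a2 and 4.13 for Bsnd. RNAlater had 1 such marginal nucleus and gave no value. After thinning, the shares were 92.8% and 93.9% for Kcnq1, 47.8% and 45.0% for Kcne1 and 4.36% and 4.62% for Bsnd. A minimum fold of 4 left 3 genes of the potassium list lower in marginal nuclei in place of 7.

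The following alternatives were chosen after seeing the data. With the MethFix cluster led by genes of motile cilia counted as marginal, the levels were 2934 for Kcnq1, 664 for Kcne1 and 8473 for Slc12a2, whose log2 ratio was 2.40. With totals free of mitochondrial UMIs, the MethFix level of Slc12a2 was 9083. Without nuclei that held a marginal marker other than Lmx1a in the other classes, the RNAlater log2 ratio of Slc12a2 was 2.50.

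Depth limits Bsnd most, with 226 and 211 marginal UMIs, and the root and spindle classes, with 57 to 97 nuclei. No paired analysis was possible because each method has 1 library and no result comes from a test.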

Other observations

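A MethFix cluster of 107 nuclei that was led by Dnah12, Spag16 and Dnah5, genes of motile cilia, received no name and is in none of the classes compared. It had 1160 CPM of Kcnq1, 404 of Kcne1, 3419 of Slc12a2 and 10.6 of Bsnd, beside 1356 of Esrrb. Each of these values lay below that of marginal nuclei and above that of the other 5 classes summed. An unnamed RNAlater cluster of 87 nuclei, led by Stab1, Kcnd2 and Slc8a1, had 3748 CPM of Slc12a2 and 469 of Kcne1. Both lay above the RNAlater levels of all 5 non-marginal classes. The same cluster had 449 CPM of Kcnq1 and 367 of the marginal marker Esrrb (54 UMIs), with a median of 1302 UMIs a nucleus. The part of marginal RNA in its levels was not tested. An unnamed MethFix cluster of 71 nuclei, led by Kcnd2, Fgf14 and Kcnip4, had 1371 of Slc12a2 and 250 of Kcne1. Its Esrrb level was 32.3 (4 UMIs).

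In the 671 nuclei that were marginal in both libraries, the RNAlater matrix held more UMIs of each gene than the MethFix matrix for the same barcodes. MethFix held 10342 UMIs of Kcnq1 and RNAlater 12587. The numbers were 2261 and 2550 for Kcne1, 30857 and 36987 for Slc12a2, and 172 and 209 for Bsnd. The count was the same in both matrices for 9.09% of these nuclei for Kcnq1 and for 40.1% for Kcne1. These counts are not scaled to depth, which was also higher in RNAlater. Marginal nuclei whose barcode was in both matrices had a median of 5196 UMIs in MethFix (768 nuclei) and 6085.5 in RNAlater (674 nuclei). The part of depth in the differences was not tested.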
